A study of Homo sapiens with 25 samples.

Results

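Ribonucleotide reductase and its partner enzymes of deoxynucleotide supply are described here through 9 genes measured in A549, a human cell line established from a lung carcinoma. RRM1, RRM2 and RRM2B encode the subunits of the reductase. TYMS, TK1 and DTYMK belong to the making of thymidine nucleotides, DCK to the salvage of other deoxynucleosides, and SAMHD1 and DUT to the removal of deoxynucleotides. The genes were chosen by name, and earlier results of these data were known when they were chosen. All 9 were found by NCBI Gene number among the 28395 gene IDs of the count table, and all 9 passed the count filter that left 14658 genes for testing.

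The cells carried an auxin-inducible degron (mAID) on TRRAP, a scaffold subunit of histone acetyltransferase complexes, and the series text names 5-Ph-IAA as the compound that starts TRRAP degradation. Every group, the DMSO group included, had been held in 2 mM thymidine for 20 h and then released into fresh medium for 4 h. The 4 groups of 3 RNA libraries were both drugs (5-Ph-IAA at 1 µM for 6 h and prexasertib for 3 h), 5-Ph-IAA alone, prexasertib alone and DMSO. Prexasertib inhibits the checkpoint kinase CHK1. Its dose is left out because the RNA labels give it in mM and the chromatin labels in nM. The genotype label reads WT although the growth protocol names the degron cells, so the titles of the samples were used for grouping. No RNA group used here received 5-Ph-IAA in cells without the degron, so an effect of the compound and an effect of TRRAP loss cannot be told apart. The labels do not say whether the cells were 1 clone or whether the libraries came from separate cultures, so each p-value speaks of the spread among these libraries. The 13 chromatin samples were not used here.

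Ribonucleotide reductase converts ribonucleoside diphosphates to deoxyribonucleoside diphosphates and sets the pace of DNA precursor supply. Its large catalytic subunit RRM1 pairs with a small subunit that holds the tyrosyl radical, either RRM2, which is made in S phase and destroyed late in the cell cycle, or RRM2B, a p53 target known for supply outside S phase and for mitochondrial DNA. Thymidine nucleotides come from dUMP through thymidylate synthase (TYMS) or from imported thymidine through thymidine kinase 1 (TK1), and both routes meet at thymidylate kinase (DTYMK). A thymidine block works through this pathway, because the dTTP formed from added thymidine limits the reduction of CDP by the reductase. CHK1 is known to support RRM2 supply under replication stress, and the genes of DNA synthesis are classic targets of E2F factors.

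The promoter stretches are shown because the series concerns B-MYB bound to the MuvB core, which binds the CHR element (cell cycle genes homology region) of promoters that often also hold CCAAT boxes. RefSeq promoter windows on GRCh38.p14 covered 8 of the 9 genes in 13 windows, each of the 250 bases before an annotated start, and those of RRM2B are not shown. Both strands were searched for CCAAT. The CHR was searched as TTTGAA, as TTCGAA, as TTTAAA and as CTTGAA, and E2F matches as TTTCCCGC, as TTTGGCGC, as TTTCGCGC and as TTTGCCGC. These letters were settled after some of the sequences had been seen, and a match describes the letters alone. In the stretches and windows printed here, capitals mark a match and no 2 matches overlap. Within the window before the RRM2 start at base 10122739 of chromosome 2, plus strand, lay 3 CCAAT boxes, 1 CTTGAA and 1 TTTAAA. RRM2 has another annotated start at base 10122568, and the stretches printed below lie downstream of it. The stretches around the 3 CCAAT boxes and the TTTAAA, 5′ to 3′, at chr2:10122606-10122630, chr2:10122636-10122660, chr2:10122663-10122687 and chr2:10122699-10122724, read as follows.
RRM2 first CCAAT box: caaggcgcagCCAATgggaagggtc
RRM2 second CCAAT box: catggcacagCCAATgggaagggcc
RRM2 last CCAAT box: ggcaccaaagCCAATgggaagggcc
RRM2 TTTAAA: gcgcgggagaTTTAAAggctgctgga
The 3 RRM2 boxes carried the same 8 bases behind them. TK1, before the start at base 78187052 of chromosome 17, minus strand, held 2 CCAAT boxes, read here as their complement, and 2 TTTAAA. The TK1 TTTAAA nearer to this start lay 27 to 22 bases before it. The RRM2 TTTAAA lay 30 to 25 bases before base 10122739. Whether these TTTAAA act as a CHR or as another promoter element was not tested. TK1 has another annotated start at base 78187204, and its stretches printed below lie downstream of it. Its 2 boxes at chr17:78187115-78187139 and chr17:78187084-78187108 and the TTTAAA at chr17:78187064-78187089, which lies nearer to the start than the other, read as follows.
TK1 first CCAAT box: ccgggcgctgATTGGccccatggcg
TK1 second CCAAT box: ccggctcgtgATTGGccagcacgcc
TK1 TTTAAA: cacgccgtggTTTAAAgcggtcggcg

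The windows of 3 more genes are given in full because they differ in content. DTYMK (chr2:241686816-241687065, minus strand) held 2 CCAAT boxes and 1 TTCGAA, TYMS (chr18:657403-657652, plus strand) held 1 E2F match and neither of the other motifs, and SAMHD1 (chr20:36951709-36951958, minus strand) held 2 CCAAT boxes and neither a CHR nor an E2F match.
DTYMK: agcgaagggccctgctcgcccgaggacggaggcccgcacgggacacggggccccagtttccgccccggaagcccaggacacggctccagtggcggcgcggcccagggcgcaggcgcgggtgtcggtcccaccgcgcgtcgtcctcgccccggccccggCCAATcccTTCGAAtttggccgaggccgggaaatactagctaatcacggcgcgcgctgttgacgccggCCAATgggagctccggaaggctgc
TYMS: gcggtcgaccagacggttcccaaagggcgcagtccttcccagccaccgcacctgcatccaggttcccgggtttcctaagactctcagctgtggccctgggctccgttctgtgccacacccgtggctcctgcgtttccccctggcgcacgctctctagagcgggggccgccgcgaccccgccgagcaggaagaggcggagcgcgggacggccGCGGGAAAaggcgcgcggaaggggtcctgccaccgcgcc
SAMHD1: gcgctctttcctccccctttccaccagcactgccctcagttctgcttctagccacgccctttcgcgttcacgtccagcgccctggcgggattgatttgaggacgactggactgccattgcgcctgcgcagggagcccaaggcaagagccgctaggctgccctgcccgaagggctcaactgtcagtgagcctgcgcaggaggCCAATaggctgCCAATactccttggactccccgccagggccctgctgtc
RRM1 held 1 CCAAT box and 1 TTTGAA, DCK none of the letters, and 1 of the 4 DUT windows 2 TTTGAA and 2 E2F matches. Of the 13 windows, 6 held a CCAAT box, 6 a CHR and 2 an E2F match. The TK1 windows overlap and share a TTTAAA, which counts in both. Over all 35116 promoter windows of the table, 32% held a CCAAT box, 29.1% a CHR and 2.79% an E2F match. The letters had been settled after some of the sequences of these genes were seen. The counts therefore cannot be weighed against these shares.

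Each RNA library held between 10830048 and 17789482 counts. Levels are CPM, counts relative to the size of the library, with sizes scaled by TMM, which assumes that most genes do not move. The scaling factors were 1.02 to 1.1 with 5-Ph-IAA and 0.925 to 0.978 without it. With library size alone the median log2 fold change of all tested genes stood at 0.16 in place of 0.01 for 5-Ph-IAA against DMSO, so small changes are read relative to that median. Differences were tested with edgeR's quasi-likelihood test, adjusted by Benjamini-Hochberg over all 14658 genes and called at an adjusted p under 0.05. The libraries numbered 3 stood apart within every group, with a chi-square per degree of freedom of 12.7 to 19.4 against libraries 1 and 2, where libraries 1 and 2 differed by 2.24 to 3.83. The libraries numbered 3 deviated together across the groups, whereas numbers 1 and 2 were not told apart in this way. The main fit holds no block. The fit with the replicate number as a block is given where it changes a call among the 9 genes or moves a list's count by over 1.5 times. Summed CPM of 14 markers of blood, fibroblast, endothelial and neuronal cells stayed between 84.5 and 113 in every library. These markers were not uniformly low. The neuronal SNAP25 stood at 44.6 CPM or more in every library, and the fibroblast COL1A1 averaged 30.6 to 32.5 CPM by group. DCN was at 0 throughout. The sum of 6 epithelial markers was 7451 to 9535, although EPCAM among these stood at 0.432 to 1.45 CPM and KRT19 at 0.931 to 6.96 CPM. TRRAP mRNA averaged 119 ± 20.8 CPM with both drugs, 133 ± 15.3 with 5-Ph-IAA, 74.8 ± 10.4 with prexasertib and 83.2 ± 9.9 in DMSO (SD, n = 3 each), and does not check the degron, which acts on the protein.

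The comparison of 5-Ph-IAA with DMSO asks how these transcripts stood after 5-Ph-IAA in the degron cells. RRM2 fell most among the 9 genes, to 0.27 of its DMSO level, while 5 others (RRM1, TYMS, TK1, DTYMK and DCK) fell by far less, SAMHD1 rose, and RRM2B and DUT did not pass the test. In all, 6 of 9 genes were lower, where 12.2% of all tested genes were lower, and 1 was higher, where 9.65% were. The count of lower genes was 3 with library size alone and 3 without DMSO 3, 5-Ph-IAA 1 or 5-Ph-IAA 2, and that of higher genes was 0 with no filter, with the groups compared alone, without any 1 DMSO library and without 5-Ph-IAA 2 or 3. The median log2 fold change of the 9 genes was -0.38, beside 0.01 over all tested genes. All 3 libraries lay below all 3 of DMSO for 6 of the genes, as they did for 18.9% of all tested genes, and above them for 1, as for 18.5%. In bulk RNA, fewer cells that express a gene and less RNA per cell cannot be told apart.

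RRM2 (NCBI Gene 6241, chromosome 2, 10122568 to 10211010) encodes the S phase small subunit. It stood at 104, 103 and 132 CPM in the 3 libraries with both drugs and at 114, 110 and 150.3 CPM with 5-Ph-IAA, against 355, 340 and 405 CPM with prexasertib and 447, 418 and 522 CPM in DMSO. The highest library with 5-Ph-IAA lay below the lowest without it, whether or not prexasertib was present. The share of all tested genes that separate in this way was not counted, here or for TK1, DCK and SAMHD1 below. Counts behind these levels ran from 1156 to 6702 per library. With 5-Ph-IAA alone RRM2 fell by 1.89 ± 0.14 on the log2 scale (SE), 3.71-fold lower than DMSO (edgeR adjusted p = 1.8e-06). Under prexasertib, both drugs against prexasertib gave -1.70 ± 0.14, a level 3.25-fold lower (edgeR adjusted p = 4.8e-06). Among all 14658 tested genes RRM2 ranked 13 from the lowest log2 fold change in the first comparison and 9 in the second. The 3 replicate numbers gave -1.97, -1.93 and -1.79 for 5-Ph-IAA against DMSO and -1.76, -1.73 and -1.62 for both drugs against prexasertib. These calls held under all alternatives run, with fold changes of -2.05 to -1.80 and -1.83 to -1.63 when any 1 library was left out.

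**Figure D1:**
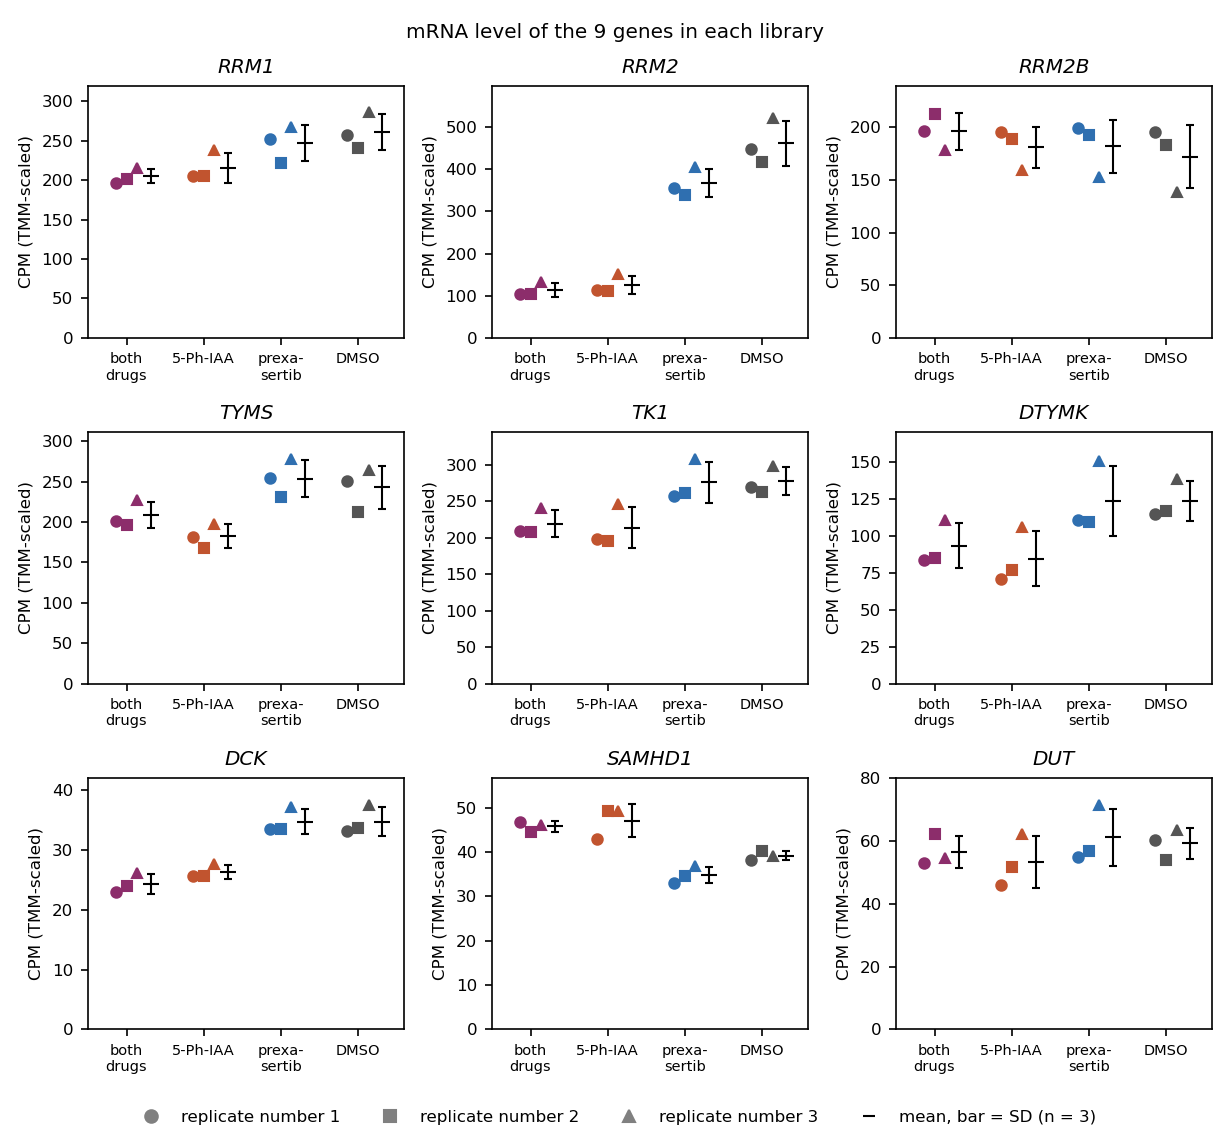
Level of each of the 9 genes in CPM (vertical axis, TMM-scaled, from 0) in every library, by group, with the symbol giving the replicate number and the black bar the mean ± SD of 3 libraries. RRM2 lies at 103 to 150.3 CPM in the libraries with 5-Ph-IAA and at 340 to 522 CPM in those without, while the other genes move over narrower ranges.

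RRM1 (NCBI Gene 6240, chromosome 11, 4094685 to 4138932), the large subunit that every form of the enzyme needs, moved much less. It had 197, 202 and 215 CPM with both drugs, 205, 205 and 238 CPM with 5-Ph-IAA, 252, 222 and 268 CPM with prexasertib and 257, 241 and 286 CPM in DMSO. All libraries with 5-Ph-IAA lay below all DMSO libraries. The change was -0.27 ± 0.09 for 5-Ph-IAA against DMSO (edgeR adjusted p = 0.043) and -0.27 ± 0.09 for both drugs against prexasertib (edgeR adjusted p = 0.049), 1.21-fold lower in each. Both calls lay close to the threshold. The first was lost without DMSO 1 or 3, prexasertib 1, 5-Ph-IAA 1 or 2, or both drugs 1 or 2 (-0.29 to -0.21, adjusted p 0.055 to 0.15), and the second without DMSO 1, prexasertib 1 or 3, 5-Ph-IAA 1 or 2, or both drugs 1 or 2 (-0.28 to -0.22, adjusted p 0.059 to 0.15). With library size alone the changes were -0.12 and -0.13 (edgeR adjusted p = 0.27 and 0.22). The groups compared alone also lost the first call (edgeR adjusted p = 0.074) and the second (edgeR adjusted p = 0.059), and limma-voom lost the second (-0.27, adjusted p = 0.054), as did no filter and the strict filter.

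RRM2B (NCBI Gene 50484, chromosome 8, 102204501 to 102238961), the alternative small subunit, was not called in either comparison. Its level was 196, 213 and 178 CPM with both drugs, 195, 189 and 159 CPM with 5-Ph-IAA, 199.7, 193 and 153 CPM with prexasertib and 195, 183 and 138 CPM in DMSO. The groups overlapped, and in each the library numbered 3 was the lowest. The difference was 0.07 ± 0.13 for 5-Ph-IAA against DMSO (edgeR adjusted p = 0.75) and 0.10 ± 0.14 for both drugs against prexasertib (edgeR adjusted p = 0.65).

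The balance of the subunit transcripts can be read inside each library as a ratio of raw counts, which no scaling of the libraries touches. For each RRM2 count there were 1.88, 2.08 and 1.35 RRM2B counts with both drugs and 1.71, 1.71 and 1.06 with 5-Ph-IAA, against 0.563, 0.568 and 0.378 with prexasertib and 0.436, 0.437 and 0.265 in DMSO. Every library with 5-Ph-IAA held more RRM2B than RRM2 counts, and every library without it held fewer. The counts are not corrected for transcript length, so the ratio shows the shift between groups and not which transcript was more abundant. RRM1 counts per RRM2 count were 1.89, 1.97 and 1.63 with both drugs and 1.80, 1.87 and 1.59 with 5-Ph-IAA, against 0.711, 0.654 and 0.661 with prexasertib and 0.575, 0.577 and 0.548 in DMSO. On the log2 scale the RRM2B to RRM2 ratio was 1.98 higher with 5-Ph-IAA than in DMSO and 1.82 higher with both drugs than with prexasertib. For RRM1 to RRM2 these differences were 1.62 and 1.43. Leaving out any 1 library of the groups compared kept the differences of RRM2B at 1.74 to 2.21 and 1.62 to 2.00, and those of RRM1 at 1.57 to 1.69 and 1.38 to 1.51. Set against RRM2 in the same way, the other 6 genes stood higher by 1.33 (DTYMK), 1.49 (TYMS), 1.5 (DCK), 1.51 (TK1), 1.74 (DUT) and 2.16 (SAMHD1) with 5-Ph-IAA than in DMSO. Every ratio shares RRM2 as its denominator, so each holds the RRM2 change of -1.89 and is not a separate result. TYMS, TK1, DTYMK and DCK themselves fell.

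**Figure D2:**
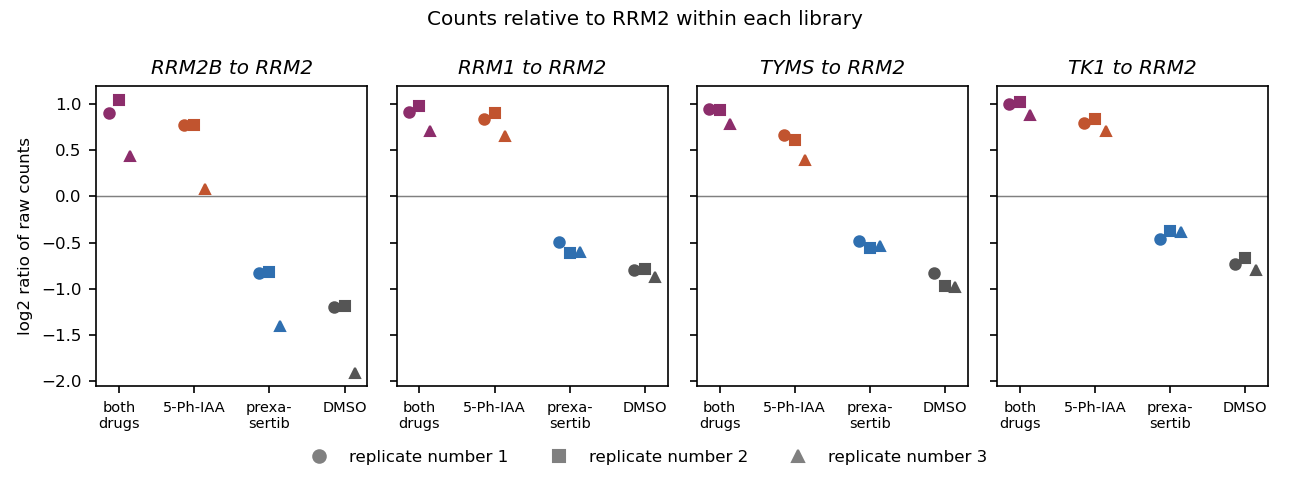
Log2 ratio of raw counts to those of RRM2 inside each library (vertical axis), for RRM2B, RRM1, TYMS and TK1, by group, with the symbol giving the replicate number. All 6 libraries with 5-Ph-IAA lie above 0 in each panel, from 0.08 to 1.05, and all 6 without it lie below 0. The panels share RRM2 as the denominator, so each holds the fall of RRM2.

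The genes of thymidine nucleotides fell together with 5-Ph-IAA alone. TYMS (NCBI Gene 7298, chromosome 18, 657653 to 673578), which methylates dUMP to dTMP, had 201, 197 and 227 CPM with both drugs, 182, 168 and 198 CPM with 5-Ph-IAA, 255, 231 and 278 CPM with prexasertib and 251, 213 and 265 CPM in DMSO. The 5-Ph-IAA libraries all lay below the DMSO libraries, whereas those with both drugs overlapped DMSO. TYMS fell by 0.41 ± 0.10 with 5-Ph-IAA (log2, SE; edgeR adjusted p = 0.0095), 1.33-fold. Both drugs against prexasertib gave -0.29 ± 0.10 (edgeR adjusted p = 0.061), and the fit with the replicate number as a block called it (adjusted p = 1.4e-05). TYMS is uncertain to the extent that the strand setting of the counting is not given in the sources used here, because 2 genes overlap it on the opposite strand. ENOSF1 shares 10593 bases with it and averaged 20.9 ± 1.46 CPM with 5-Ph-IAA and 25.8 ± 4.4 CPM in DMSO, and TYMSOS shares 639 bases and averaged 8.76 ± 1.34 CPM with 5-Ph-IAA and 8.45 ± 0.89 CPM in DMSO.

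TK1 (NCBI Gene 7083, chromosome 17, 78174079 to 78187204), the S phase kinase that traps imported thymidine, had 209, 208 and 241 CPM with both drugs, 199, 196 and 246 CPM with 5-Ph-IAA, 258, 262 and 308 CPM with prexasertib and 270.4, 263 and 299 CPM in DMSO. Each library with 5-Ph-IAA lay below each library without it. It fell by 0.38 ± 0.10 with 5-Ph-IAA against DMSO (edgeR adjusted p = 0.018) and by 0.33 ± 0.10 with both drugs against prexasertib (edgeR adjusted p = 0.04). The first call was lost without DMSO 3 or 5-Ph-IAA 1 or 2 (-0.33 to -0.32, adjusted p 0.065 to 0.082). The second was lost without DMSO 1, prexasertib 2 or 3, or both drugs 1 or 2 (-0.37 to -0.25, adjusted p 0.053 to 0.13), and library size alone gave -0.22 and -0.19 (edgeR adjusted p = 0.072 and 0.13).

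DTYMK (NCBI Gene 1841, chromosome 2, 241675747 to 241686815), which turns dTMP into dTDP, had 83.7, 85.5 and 111 CPM with both drugs, 70.8, 77.2 and 106 CPM with 5-Ph-IAA, 111, 109.6 and 151 CPM with prexasertib and 115, 117 and 139 CPM in DMSO. The library numbered 3 was the highest of its group each time, and all libraries with 5-Ph-IAA lay below all DMSO libraries, while those with both drugs overlapped those with prexasertib. DTYMK fell by 0.55 ± 0.17 with 5-Ph-IAA (edgeR adjusted p = 0.039), with -0.69, -0.60 and -0.40 for the 3 replicate numbers. Both drugs against prexasertib gave -0.41 ± 0.17 (edgeR adjusted p = 0.13), which the replicate block called (adjusted p = 3.9e-07). The 5-Ph-IAA call was lost without any 1 DMSO library or without 5-Ph-IAA 1 or 2 (-0.60 to -0.44, adjusted p 0.06 to 0.14), with library size alone (-0.39, edgeR adjusted p = 0.075) and with no filter (-0.56, edgeR adjusted p = 0.077).

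DCK (NCBI Gene 1633, chromosome 4, 70993649 to 71030914), the kinase that salvages deoxycytidine and activates nucleoside drugs such as gemcitabine, fell evenly. It had 22.9, 24.0 and 26.1 CPM with both drugs and 25.6, 25.7 and 27.7 CPM with 5-Ph-IAA, against 33.5, 33.4 and 37.1 CPM with prexasertib and 33.1, 33.6 and 37.5 CPM in DMSO. No library with 5-Ph-IAA reached the level of any library without it, on 271 to 500 counts per library. The change was -0.40 ± 0.09 with 5-Ph-IAA against DMSO (edgeR adjusted p = 0.0072) and -0.51 ± 0.09 with both drugs against prexasertib (edgeR adjusted p = 0.002). Both calls held without any 1 library, at adjusted p up to 0.033 and 0.013.

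SAMHD1 (NCBI Gene 25939, chromosome 20, 36889773 to 36951708), the hydrolase that breaks deoxynucleoside triphosphates down to nucleosides, went the other way. It had 46.8, 44.5 and 46.1 CPM with both drugs and 42.9, 49.2 and 49.3 CPM with 5-Ph-IAA, against 33.1, 34.6 and 36.8 CPM with prexasertib and 38.3, 40.3 and 39.2 CPM in DMSO. All 6 libraries with 5-Ph-IAA lay above all 6 without it, a separation whose share over all tested genes was not counted. SAMHD1 rose by 0.26 ± 0.08 with 5-Ph-IAA against DMSO (edgeR adjusted p = 0.034) and by 0.40 ± 0.08 with both drugs against prexasertib (edgeR adjusted p = 0.0049). The second call held without any 1 library, whereas the first was lost without any 1 DMSO library or without 5-Ph-IAA 2 or 3 (0.23 to 0.28, adjusted p 0.06 to 0.13), with no filter (0.26, edgeR adjusted p = 0.077) and with the groups compared alone (0.28, edgeR adjusted p = 0.069).

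DUT (NCBI Gene 1854, chromosome 15, 48331095 to 48343373), the dUTPase that keeps uracil out of DNA and supplies dUMP, did not separate the groups. It had 52.9, 62.3 and 54.5 CPM with both drugs, 46.0, 51.6 and 62.3 CPM with 5-Ph-IAA, 54.9, 56.8 and 71.5 CPM with prexasertib and 60.2, 53.9 and 63.5 CPM in DMSO. The difference was -0.15 ± 0.13 for 5-Ph-IAA against DMSO (edgeR adjusted p = 0.43) and -0.11 ± 0.13 for both drugs against prexasertib (edgeR adjusted p = 0.6), and library size alone put them at 0.00 and 0.03.

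In the comparison of both drugs with prexasertib, which asks the same question with CHK1 inhibited, 4 of the 9 genes were lower (RRM1, RRM2, TK1 and DCK) and 1, SAMHD1, was higher. Of all tested genes 10.4% were lower and 7.85% higher. The median of the 9 genes was -0.29, beside 0.01 over all tested genes. The libraries separated downward for 5 genes and upward for 1, where 17.6% of all tested genes did so in each direction. With the replicate block 6 were lower, TYMS and DTYMK being added. DESeq2 called 5 lower and limma-voom 3, and the count was 2 with library size alone and 2 without DMSO 1, prexasertib 3, both drugs 1 or both drugs 2.

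**Figure D3:**
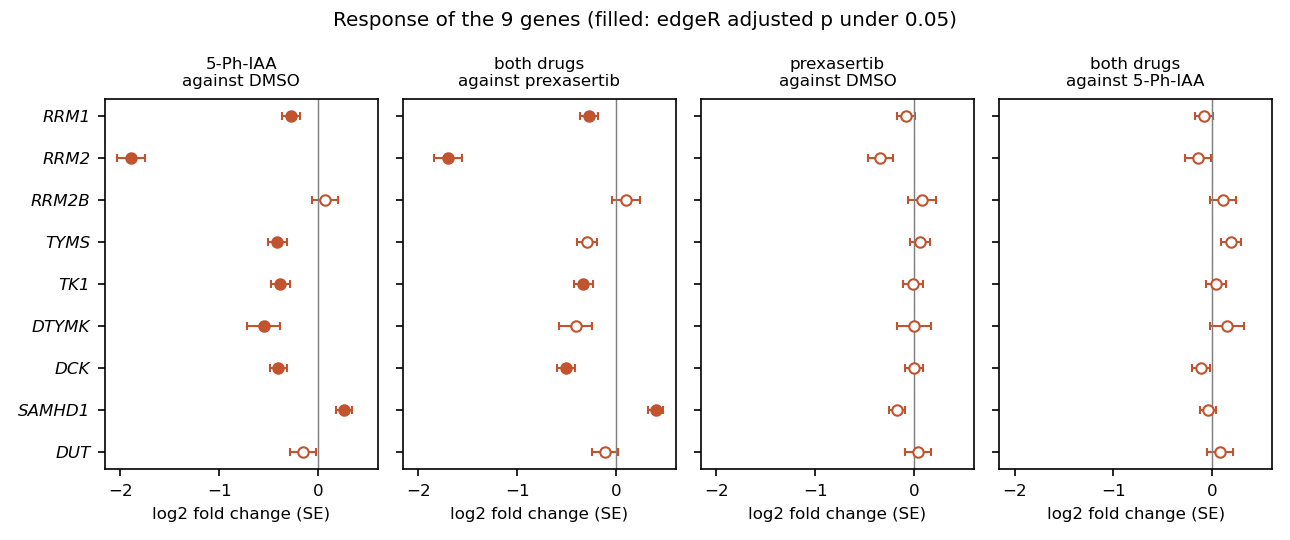
Log2 fold change with its SE (horizontal axis) of the 9 genes in 4 comparisons, where filled points passed edgeR's test at an adjusted p under 0.05. RRM2 stands at -1.89 and -1.70 in the 5-Ph-IAA comparisons, and the points of the prexasertib comparisons lie between -0.34 and 0.19, none of them filled.

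The comparison of prexasertib with DMSO asks what CHK1 inhibition did where no 5-Ph-IAA was given, and it called none of the 9 genes (0 higher and 0 lower). Of all tested genes 2.36% were higher and 2.37% lower. At an unadjusted p under 0.05 edgeR gave 1 lower gene, RRM2, and DESeq2 and limma-voom called 0. RRM2 lay below DMSO in all 3 prexasertib libraries, at a mean of 367 ± 34.0 CPM with prexasertib and 462 ± 53.4 CPM in DMSO (SD, n = 3 each). The difference was -0.34 ± 0.13 (edgeR adjusted p = 0.19), and the replicate numbers gave -0.34, -0.30 and -0.37. The fit with the replicate number as a block called it (-0.33 ± 0.05, adjusted p = 1.7e-06), as did the fit without the libraries numbered 3 (-0.31, adjusted p = 0.00013). SAMHD1 also had all 3 prexasertib libraries below DMSO, with a difference of -0.17 ± 0.08 (edgeR adjusted p = 0.31). No gene of the 9 had all 3 prexasertib libraries above DMSO. Of all tested genes, 11.3% separated downward and 9.78% upward. The other 7 genes lay between -0.08 (RRM1) and 0.08 (RRM2B), with SE of 0.09 to 0.17, and their libraries overlapped. DCK, with 33.4 to 37.1 CPM with prexasertib and 33.1 to 37.5 CPM in DMSO, differed by 0.00 ± 0.09.

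Both drugs against 5-Ph-IAA asks for the effect of prexasertib after 5-Ph-IAA, and again 0 of the 9 genes were higher and 0 lower, where 1.17% and 1.26% of all tested genes were. None had an unadjusted edgeR p under 0.05, and DESeq2 and limma-voom called 0. RRM2 averaged 113 ± 16.2 CPM with both drugs and 125 ± 22.1 CPM with 5-Ph-IAA, the libraries overlapped, and the difference was -0.14 ± 0.13 (edgeR adjusted p = 0.72). TYMS had the largest difference of the 9 genes, 0.19 ± 0.10 (edgeR adjusted p = 0.44), with 0.15, 0.23 and 0.20 for the replicate numbers. The replicate block called TYMS higher with both drugs (0.19 ± 0.05, adjusted p = 0.0081).

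Set directly against DMSO, both drugs left 4 of the 9 genes lower and 0 higher, where 14.2% of all tested genes were lower and 11.8% higher. RRM2 was 4.10-fold lower (-2.03 ± 0.14, edgeR adjusted p = 2e-06), DCK 1.43-fold (-0.51 ± 0.09, edgeR adjusted p = 0.0014), RRM1 1.28-fold (-0.35 ± 0.09, edgeR adjusted p = 0.011) and TK1 1.26-fold (-0.34 ± 0.10, edgeR adjusted p = 0.027). All 3 libraries lay below DMSO for 5 genes, as for 20.8% of all tested genes, and above it for 1, SAMHD1, as for 19.7%. Of the remaining genes, SAMHD1 had an unadjusted p under 0.05 in the higher direction (0.22 ± 0.08, edgeR adjusted p = 0.06), and DESeq2 and limma-voom called 0 higher. SAMHD1 was called higher with library size alone (0.33, edgeR adjusted p = 0.0083) and with the strict filter (0.25, edgeR adjusted p = 0.033). In the lower direction TYMS (edgeR unadjusted p = 0.043) and DTYMK (edgeR unadjusted p = 0.037) passed the same unadjusted threshold. The replicate block added TYMS (-0.22, adjusted p = 0.00044) and DTYMK (-0.41, adjusted p = 1.9e-07) as lower and SAMHD1 (0.23, adjusted p = 0.018) and RRM2B (0.19, adjusted p = 0.0039) as higher. The TK1 call was lost without DMSO 1 or 3 or both drugs 1 or 2 (-0.36 to -0.28, adjusted p 0.053 to 0.1) and with library size alone (-0.23, edgeR adjusted p = 0.059). Without both drugs 3, DTYMK was called (-0.54, adjusted p = 0.046), and without DMSO 2, TYMS was (-0.31, adjusted p = 0.043).

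Whether the response to 5-Ph-IAA differed with prexasertib present was tested as an interaction between 5-Ph-IAA and prexasertib. On the log scale it called 0 of the 9 genes, 0 of all tested genes (0.0%), and none of the 9 at an unadjusted p under 0.05. DESeq2 called 0 of the 9 and 5 of all tested genes, and limma-voom called 0 of both. For RRM2 the interaction was 0.19 ± 0.19 (edgeR adjusted p = 1), with 0.21, 0.20 and 0.17 for the replicate numbers. For the other 8 genes it lay between -0.11 (DCK) and 0.14 (DTYMK). The comparisons share libraries, 5-Ph-IAA and prexasertib being set against the same DMSO libraries and both comparisons of both drugs resting on the same 3 libraries.

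Within the groups the 9 genes, apart from SAMHD1 and DUT, also separated library 3 from libraries 1 and 2. Library 3 stood apart over the whole table, and how many of all tested genes separated it was not counted. RRM1, RRM2, TYMS, TK1, DTYMK and DCK were higher in library 3 than in the mean of 1 and 2 in all 4 groups, by 0.10 to 0.52 on the log2 scale. DTYMK moved by 0.39 with both drugs, 0.52 with 5-Ph-IAA, 0.46 with prexasertib and 0.26 in DMSO, and RRM2 by 0.34 with both drugs, 0.42 with 5-Ph-IAA, 0.22 with prexasertib and 0.27 in DMSO. RRM2B was lower in library 3 in all 4 groups, with differences of -0.20 with both drugs, -0.27 with 5-Ph-IAA, -0.36 with prexasertib and -0.45 in DMSO. For SAMHD1 the differences lay between 0.00 and 0.12, and for DUT between -0.08 and 0.36. Without the libraries numbered 3, the 7 genes called with 5-Ph-IAA against DMSO were all called again, as were the 5 called with both drugs against prexasertib and the 4 called with both drugs against DMSO, and TYMS and DTYMK joined the last 2 comparisons. RRM2 then stood at -1.93 (adjusted p = 7e-25 by edgeR), -1.75 (edgeR adjusted p = 5.3e-23) and -2.06 (edgeR adjusted p = 1.2e-25) in these 3 comparisons. What sets the libraries numbered 3 apart was not tested.

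Pattern likeness between genes was measured as the root mean square difference of log2 CPM over the 12 libraries, each gene centred on its own mean. RRM1, TYMS, TK1, DTYMK and DCK lay within 0.0879 to 0.187 of each other over their 10 pairs. These genes varied little about their own means, from 0.17 (RRM1) to 0.317 (DTYMK), and the distances are to be read beside that. DUT, which no comparison called, lay inside the same range from RRM1 (0.142), TK1 (0.152) and TYMS (0.168). From DCK (0.209) and DTYMK (0.223) it lay farther. RRM2 lay 0.681 to 1.08 from each of the other 8 genes. Its nearest genes in the whole table were PAQR4 (0.247), SNORD104 (0.248) and PIGW (0.295), whereas RRM2 itself varied by 0.922 about its mean. PAQR4 averaged 9.14 ± 0.855 CPM with both drugs, 8.97 ± 2.52 with 5-Ph-IAA, 20.8 ± 2.29 with prexasertib and 26.4 ± 3.48 in DMSO. Nearest to RRM1 were PPM1G (0.0425), USP4 and XRCC5, to TYMS PPIB (0.0604), EIF3B and RHEB, to TK1 CCT2 (0.0441), SLC3A2 and MTCH1, to DTYMK TRIP6 (0.0605), MRPS12 and TFB2M, and to DCK UBE2D2 (0.0553), MCMBP and OIP5-AS1. Nearest to RRM2B were GPX3 (0.0552), MYO6 and NPTXR, to SAMHD1 GNE (0.0616), TMEM37 and TRIM32, and to DUT KLHDC2 (0.0551), LEMD2 and SEC11A. All points come from the same 12 libraries and share their depth and scaling.

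The rest of nucleotide metabolism was followed through 7 lists of 71 other genes, of which 70 were tested. With 5-Ph-IAA against DMSO, 25 of them were lower and 2 higher, where 12.2% of all tested genes were lower and 9.65% higher. Their median log2 fold change was -0.25 beside 0.01 over all tested genes. The replicate block gave 43 lower and 4 higher, and over all tested genes it called 6245 in place of 3201. No list gene fell as far as RRM2: the lowest was DCTPP1, the pyrophosphatase that clears dCTP, at -1.05 ± 0.23 (edgeR adjusted p = 0.0073). In purine synthesis 9 of 13 genes were lower and 0 higher (10 of 13 at an unadjusted p under 0.05), with IMPDH2, the IMP dehydrogenase of guanine nucleotide synthesis, at -0.59 ± 0.08 (edgeR adjusted p = 0.00025) and ADSS2, of adenine nucleotide synthesis, at -0.55 ± 0.07 (edgeR adjusted p = 0.00012). In the folate list, which supplies the methyl group for TYMS, 6 of 10 were lower. SLC19A1, the reduced folate carrier, fell by 0.99 ± 0.14 (edgeR adjusted p = 0.00031) and MTHFD1L, of mitochondrial formate production, by 0.63 ± 0.09 (edgeR adjusted p = 0.00026).

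Of 9 genes of pyrimidine synthesis, 3 were lower and 0 higher with 5-Ph-IAA (5 and 1 with the replicate block), among them CAD, the enzyme of the opening steps, at -0.82 ± 0.08 (edgeR adjusted p = 1.1e-05), and UCK2, a salvage kinase for uridine and cytidine, at -0.72 ± 0.09 (edgeR adjusted p = 0.00014). Salvage and transport had 4 lower and 1 higher of 13 tested. TYMP, the thymidine phosphorylase, stood at -0.79 ± 0.16 (edgeR adjusted p = 0.0034) and PNP, the purine nucleoside phosphorylase, at -0.31 ± 0.06 (edgeR adjusted p = 0.0031), while TK2, the mitochondrial counterpart of TK1, rose by 0.27 ± 0.09 (edgeR adjusted p = 0.04). Of 11 nucleotide kinases 1 was lower, AK4, a mitochondrial adenylate kinase, at -0.86 ± 0.14 (edgeR adjusted p = 0.00095), and 0 were higher (4 at an unadjusted p under 0.05), while the replicate block gave 7 lower and 0 higher. Of 10 sanitation genes 2 were lower and 0 higher (7 at an unadjusted p under 0.05, and 5 lower and 1 higher with the replicate block), the second being the nucleotidase NT5C2 at -0.21 ± 0.07 (edgeR adjusted p = 0.035). None of the 4 reductase partners of the thioredoxin and glutaredoxin systems was called (0 higher and 0 lower). Of them, 1 had an unadjusted p under 0.05, and 2 were lower with the replicate block. Over all tested genes 5066 had an unadjusted edgeR p under 0.05 in this comparison. The block called 6245 of all tested genes, where the main fit called 3201. The unadjusted and block counts of the lists are to be read beside these.

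Both drugs against prexasertib gave 23 lower and 2 higher of the 70 (32 and 3 with the replicate block), where 10.4% of all tested genes were lower and 7.85% higher, with GART, a purine synthesis enzyme, at -0.67 ± 0.10 (edgeR adjusted p = 0.00053), MTHFD2 at -0.52 ± 0.09 (edgeR adjusted p = 0.001), HPRT1, the purine salvage enzyme, at -0.29 ± 0.09 (edgeR adjusted p = 0.03), and TK2 higher by 0.34 ± 0.09 (edgeR adjusted p = 0.017). Both drugs against DMSO gave 24 lower and 1 higher (39 and 4 with the replicate block), where 14.2% of all tested genes were lower and 11.8% higher, with UCK2 at -1.27 ± 0.10 (edgeR adjusted p = 2.6e-06), AK4 at -1.09 ± 0.15 (edgeR adjusted p = 0.00019), SLC29A1, a nucleoside transporter, at -0.57 ± 0.10 (edgeR adjusted p = 0.00086) and GSR, the glutathione reductase, at -0.31 ± 0.10 (edgeR adjusted p = 0.033). Prexasertib against DMSO gave 1 lower, UCK2 at -0.58 ± 0.09 (edgeR adjusted p = 0.0032), and 1 higher, AK6, a nuclear adenylate kinase, at 0.40 ± 0.10 (edgeR adjusted p = 0.038), where the replicate block gave 11 and 3. Of all tested genes 2.37% were lower and 2.36% higher in that comparison. Both drugs against 5-Ph-IAA gave 2 lower, UCK2 at -0.54 ± 0.10 (edgeR adjusted p = 0.0071) and GMPS, the GMP synthase, at -0.34 ± 0.08 (edgeR adjusted p = 0.04), and 0 higher, where the replicate block gave 6 and 7, and 1.26% of all tested genes were lower and 1.17% higher. The percentages of all tested genes come from the fit without the block, so they are no measure for the block's counts. Over all tested genes the block called 2659 in place of 693 for prexasertib against DMSO. It called 2272 in place of 355 for both drugs against 5-Ph-IAA. For both drugs against prexasertib it called 5441 in place of 2674, and against DMSO 6552 in place of 3802. The annotated spans of ADSS2, AK6, MTHFD2, NT5C2, SLC19A1 and TYMP overlap another tested coding gene, and these 6 are uncertain for that reason.

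**Figure D4:**
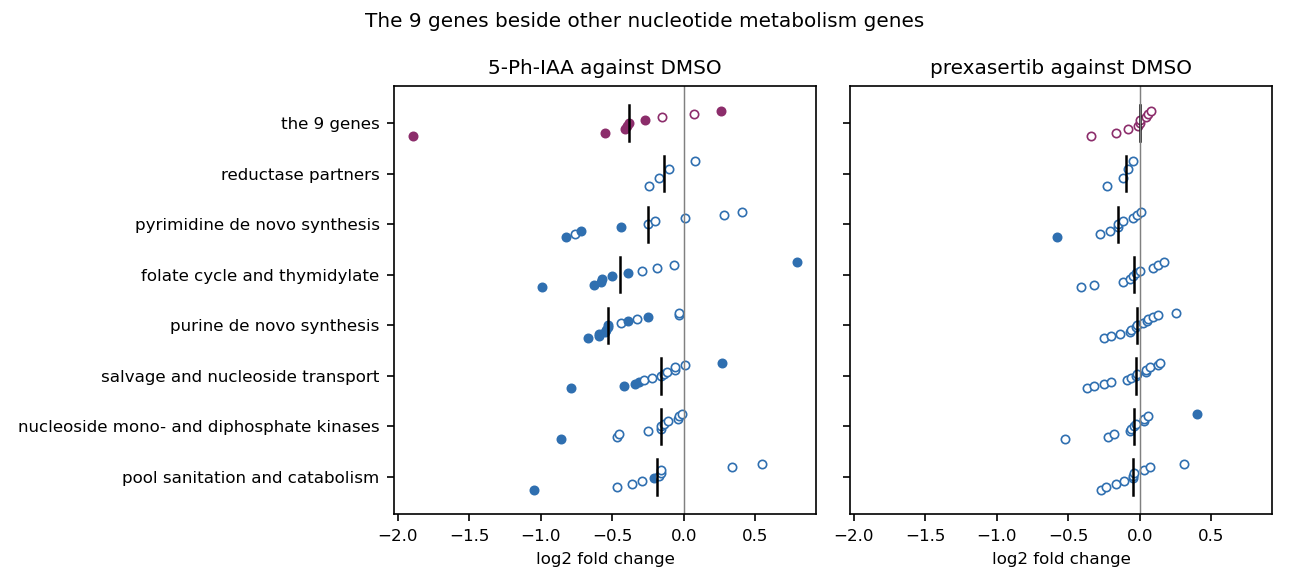
Log2 fold change (horizontal axis) of the 9 genes and of 70 tested genes in 7 lists of nucleotide metabolism, for 5-Ph-IAA against DMSO and for prexasertib against DMSO. Each point is a gene, filled where edgeR's adjusted p was under 0.05, and the black line is the median of the list. RRM2 at -1.89 lies apart from all other points of the left panel, whose next lowest is DCTPP1 at -1.05.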

How the data were processed

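The authors deposited raw counts per gene for 12 RNA libraries, whole numbers that they had not normalized. Libraries were poly(A)-selected and directional, per the labels' protocols, and hg38 is the build of the submitters' processing notes, which list featureCounts 2.0.8 and limma 3.58.1 as tools. Which aligner, annotation or strand setting was used is not given in the sources used here. Of the gene IDs 27745 matched the reference gene table, and coordinates and promoters are those of RefSeq on GRCh38.p14.

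From the counts, edgeR 4.0.16 in R 4.3.3 gave every test. Genes passed filterByExpr (minimum count 10, minimum total 15), which kept 99.92% of the counts, and libraries were scaled by TMM. A robust quasi-likelihood fit with 1 term per group ran over all 12 libraries, with a biological coefficient of variation of 12.8%. The SE is the size of the log2 fold change divided by the square root of F. Log2 CPM used a prior count of 2, and marker sums used library size alone. DESeq2 1.42.0, limma-voom, other scalings and filters, the replicate block, the groups compared alone, and left-out libraries were the alternatives.

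Replicate numbers come from the sample titles. Deviations from the group means correlated at 0.22 to 0.633 over all 18 pairs of libraries with the same number and at -0.503 to 0.366 over the 36 pairs with different numbers. Pairs of number 3 gave 0.531 to 0.633. Pairs of the same number 1 or 2 gave 0.22 to 0.402, and pairs of 1 with 2 gave 0.196 to 0.366. The correlations thus set number 3 apart and did not tell 1 from 2. The main fit used no pairing, and the block on the number was an alternative. No 2 libraries of a group agreed within counting error.

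The genes, lists, alternatives and tests were chosen with earlier results of these data known. The ratios of genes other than RRM1 and RRM2B to RRM2, the differences of library 3 and the motif letters were chosen after the values or sequences were seen. All 9 genes were named throughout. From the lists, the 2 called genes with the smallest adjusted p in each direction of each comparison could be named, and for likeness the 3 nearest genes. 1 gene of the lists is not reported here.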

Additional observations from a re-analysis of the deposited data

How the results depend on the processing

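RRM2 kept its call and direction in all 3 comparisons of 5-Ph-IAA or both drugs that called it, under every alternative run, and the within-library ratios of RRM2B and RRM1 to RRM2 kept their direction when any 1 library was left out. Of the 54 results for single genes and comparisons, 42 kept direction and side of the threshold with library size alone and 44 with the replicate block. The block called 8 more, all given beside the results, and changed no other call. The 6 calls lost with library size alone were 2 of RRM1, 3 of TK1 and 1 of DTYMK. Depth was lowest for DCK, at 271 to 500 counts. The interaction could not be fitted on the groups compared alone, since it needs all 4. The cause of the changes in the next paragraph was not tested.

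The counts of the 9 genes that moved by over 1.5 times, or away from 0, were as follows. With the replicate block and without the libraries numbered 3, prexasertib against DMSO gave 1 lower in place of 0. For 5-Ph-IAA against DMSO, no filter and the groups compared alone gave 0 higher in place of 1, and library size alone gave 3 lower in place of 6. Library size alone gave 2 lower in place of 4 for both drugs against prexasertib. The replicate block gave 1 higher in place of 0 for both drugs against 5-Ph-IAA, and for both drugs against DMSO library size alone and the strict filter gave 1 higher and the block 2, in place of 0. Without 1 library at a time, 5-Ph-IAA against DMSO had 0 to 1 higher and 3 to 6 lower, and both drugs against prexasertib had 2 to 5 lower. By 1.5 times or less, the 4 lower of both drugs against prexasertib became 3 with limma-voom, either other filter or the groups alone, 5 with DESeq2, and 6 with the block or without number 3. The 4 lower of both drugs against DMSO became 3 with library size alone, 5 with the groups alone, and 6 with the block or without number 3, and the 6 lower of 5-Ph-IAA against DMSO became 5 with no filter or the groups alone.

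Of the 70 list genes, prexasertib against DMSO called 2, but 5 with library size alone, 1 with no filter, 6 with DESeq2, 14 with the replicate block, 12 without the libraries numbered 3 and 1 with the groups compared alone. Both drugs against 5-Ph-IAA called 2, but 4 with DESeq2, 13 with the block, 9 without number 3 and 1 with the groups alone. With 5-Ph-IAA against DMSO the 27 became 47 with the block and 43 without number 3, the 25 of both drugs against DMSO became 43 and 40, and the 25 of both drugs against prexasertib became 14 with library size alone. Leaving out 1 library gave 1 to 4 for prexasertib against DMSO, 1 to 2 for both drugs against 5-Ph-IAA and 13 to 27 for both drugs against prexasertib, where the low end came without both drugs 2.

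Over all tested genes the block and the fit without number 3 called 2659 and 2094 in place of 693 for prexasertib against DMSO (357 with the groups alone), 6245 and 5296 in place of 3201 for 5-Ph-IAA against DMSO, 2272 and 2042 in place of 355 for both drugs against 5-Ph-IAA (657 with DESeq2, 184 with the groups alone) and 5441 and 4498 in place of 2674 for both drugs against prexasertib. The block called 6552 in place of 3802 for both drugs against DMSO. For the interaction, where edgeR called 0, library size alone called 1, DESeq2 5, the block 96 and the fit without number 3 187. Leaving out 1 library gave 306 to 786, 2092 to 3415 and 156 to 447 for prexasertib against DMSO, 5-Ph-IAA against DMSO and both drugs against 5-Ph-IAA.

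Values that no fit called turned sign around 0. For prexasertib against DMSO, TK1 gave 0.01 with median-of-ratios factors and DESeq2 and 0.00 with the groups alone. DTYMK gave -0.03 with library size alone, -0.01 with no filter, limma-voom and the block, and -0.07 without number 3. DCK gave 0.01 with median-of-ratios factors, DESeq2, the groups alone and without number 3, and 0.00 with the strict filter, and DUT -0.03 without number 3. For both drugs against 5-Ph-IAA, TK1 gave -0.01 with library size alone. DUT gave 0.00 for 5-Ph-IAA against DMSO, 0.03 for both drugs against prexasertib and 0.04 for both drugs against DMSO with library size alone, and 0.03 and 0.00 in the last 2 without number 3. The RRM1 interaction gave 0.00 with no filter, limma-voom and the block and 0.01 without number 3. Leaving out 1 library spanned 0 in prexasertib against DMSO for RRM2B (-0.05 to 0.20), TYMS (-0.02 to 0.13), TK1 (-0.09 to 0.05), DTYMK (-0.16 to 0.10), DCK (-0.05 to 0.06) and DUT (-0.08 to 0.12). It did so in both drugs against 5-Ph-IAA for RRM2 (-0.27 to 0.01), TK1 (-0.04 to 0.15), DTYMK (0.00 to 0.33) and DUT (-0.01 to 0.21), in 5-Ph-IAA against DMSO for RRM2B (-0.06 to 0.17) and in both drugs against prexasertib for RRM2B (-0.01 to 0.17) and DUT (-0.19 to 0.01). For the interaction the ranges were -0.07 to 0.07 for RRM1, -0.10 to 0.17 for RRM2B, -0.04 to 0.16 for TK1, -0.02 to 0.33 for DTYMK and -0.05 to 0.17 for DUT.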
